A study of Mus musculus with 24 samples.

Results

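The matrilin family was followed through the series as its 4 mouse genes, Matn1, Matn2, Matn3 and Matn4, out of 50686 genes in each count table. They were chosen by the level of Matn1 in dKO and WT at day 20, seen in earlier results of these data, so values of the members between genotypes at day 20, and comparisons that contain them, are given as a description and without a p-value. RNA from tissue labelled as back left brain of C57BL/6 mice was measured by stranded mRNA sequencing. The knockout mice were Pank1-/-Syn-Pank2-/- double knockouts (dKO), with Pank1 deleted and Pank2 deleted in a form written with the prefix Syn, and the controls were wild type (WT); the prefix, and the cells in which Pank2 is deleted, are not spelled out in the sources used here. The groups were dKO females and males at day 10, WT females and males at day 10, dKO females and males at day 20 and WT females and males at day 20, with 3 libraries in each of the 8 groups. Whether the libraries of a group are from different animals is not stated in the labels, and the p-values cover the variation among libraries, which may be technical.

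Matrilins are secreted proteins built from von Willebrand factor A (VWA) domains, epidermal growth factor repeats and a coiled coil that joins their chains, and they link collagen fibrils to proteoglycans in the extracellular matrix. Matn1 encodes cartilage matrix protein, made by chondrocytes. Matn3 is likewise largely a cartilage gene, and changes in human MATN3 cause multiple epiphyseal dysplasia. Matn2 and Matn4 are expressed more widely, in loose connective tissue and in the nervous system.

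Of the 24 libraries, 23 held at least 1 M (1000000) gene counts and were used. They held 9.19 to 44.7 M, so that 1 count stood for 0.0224 to 0.109 counts per 1 M (CPM). Replicate 3 of the dKO males at day 10, with 45964 gene counts, was left out, which leaves 2 dKO males and 5 dKO libraries at day 10. Pank1 was at 8.12 ± 0.67 CPM in dKO at day 10 (n = 5) and 22.7 ± 1.63 CPM in WT (n = 6), and at 7.49 ± 0.46 CPM in dKO at day 20 and 22.7 ± 2.33 CPM in WT (n = 6 each). Pank2 was lower in dKO at day 20 (log2 change -0.43 ± 0.05, edgeR adjusted p = 1.24e-06), and at day 10 its log2 change was -0.09 ± 0.06 (edgeR adjusted p = 0.314). Errors of CPM values are SD and errors of log2 changes are SE. The tissue carried cerebellar transcripts at day 20, with Gabra6, a GABA receptor subunit of cerebellar granule cells, at 197.8 to 305.5 CPM in dKO and 252 to 373 CPM in WT, while Fezf2, a transcription factor gene of the cortex, reached at most 0.110 CPM in dKO and 0.149 CPM in WT. At day 10 the libraries varied more, with Gabra6 at 10.4 to 149.8 CPM in dKO and 63.7 to 269 CPM in WT. Fezf2 stood at 3.41 CPM in dKO female replicate 2 at day 10 and at 0.613 CPM in dKO male replicate 2. In the other 9 libraries of that day it was at 0.109 CPM or less. In bulk tissue, fewer cells of a type and less RNA per cell cannot be told apart.

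The 4 genes lie on 4 chromosomes of GRCm38 (GENCODE M21). Matn1 (ENSMUSG00000040533) is on chromosome 4, 130944385 to 130955475, plus strand. Matn2 (ENSMUSG00000022324) is on chromosome 15, 34306677 to 34436273, plus strand. Matn3 (ENSMUSG00000020583) is on chromosome 12, 8947929 to 8972028, plus strand. Matn4 (ENSMUSG00000016995) is on chromosome 2, 164389393 to 164405160, minus strand. Their exons cover 2001 bases for Matn1, 6263 for Matn2, 3014 for Matn3 and 5174 for Matn4. Of the 4, Matn1, Matn2 and Matn4 passed the filter on low counts and Matn3 did not.

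The 250 bases before the transcription start are shown for Matn1, which stood out between dKO and WT at day 20, and for Matn4. The latter was called at day 10, a call that some alternatives below lost. The sequences are from RefSeq on GRCm38.p6, written along each gene's own strand, with the base next to the start last. The Matn1 window is chr4:130944135-130944384 on the plus strand and the Matn4 window is chr2:164405161-164405410 on the minus strand.
Matn1: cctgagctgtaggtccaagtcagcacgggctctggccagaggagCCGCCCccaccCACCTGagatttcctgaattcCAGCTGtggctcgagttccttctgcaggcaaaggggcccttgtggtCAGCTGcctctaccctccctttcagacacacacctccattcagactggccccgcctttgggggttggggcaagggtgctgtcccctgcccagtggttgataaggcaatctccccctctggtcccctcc
Matn4: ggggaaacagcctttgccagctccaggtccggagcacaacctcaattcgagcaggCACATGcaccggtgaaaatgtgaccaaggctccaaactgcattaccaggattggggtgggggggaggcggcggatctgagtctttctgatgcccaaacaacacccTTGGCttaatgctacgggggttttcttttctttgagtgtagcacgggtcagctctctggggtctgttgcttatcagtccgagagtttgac
Capitals mark matches to a motif on either strand. In Matn1 these are a GC box (GGGCGG, read as CCGCCC along the gene) and 3 E-boxes (CANNTG); in Matn4 they are an E-box and the nuclear factor I core TTGGC. The 250 bases before the start held GGGCGG in 32.7%, CANNTG in 66.2% and TTGGC in 41.5% of the 32851 promoters of the table. Neither window held the SOX cores ACAAT (27.7% of promoters) or ACAAAG (16.5%), a TATAAA box (12.4%) or AGAACA, 1 arm of the glucocorticoid receptor's element (16.1%). No motifs overlapped each other in these windows. Matn3, whose window held the GC box and the nuclear factor I core, was also in the table, and Matn2 was not.

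Matn1 was a transcript close to the counting limit in WT brain at both days and in dKO brain at day 10, and an abundant matrilin transcript in dKO brain at day 20. At day 20 it was at 33.3, 34.0 and 22.1 CPM in the dKO females and 23.5, 24.2 and 21.4 CPM in the dKO males, against 0.249, 0.375 and 0.738 CPM in the WT females and 0.273, 0.168 and 0.358 CPM in the WT males. All 6 dKO libraries stood above all 6 WT libraries. The means were 26.4 ± 5.70 CPM in dKO and 0.360 ± 0.200 CPM in WT (n = 6 each), which rest on 336 to 877 counts per dKO library and 3 to 16 counts per WT library. The log2 change was 6.20 ± 0.17, a fitted fold of 73.7, which ranked 3 from the highest among the 21657 genes tested. By sex it was 6.06 ± 0.23 in females and 6.35 ± 0.24 in males. At day 20, 38.8% of genes tested were called between dKO and WT at an adjusted p under 0.05, 19.4% as higher and 19.5% as lower in dKO.

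At day 10, in libraries that had no part in choosing the family, Matn1 was at 0.326, 0.512 and 0.371 CPM in dKO females and 0.445 and 0.446 CPM in dKO males, against 0.248, 0.530 and 0.476 CPM in WT females and 0.405, 0.309 and 0.309 CPM in WT males. The groups overlapped fully, with 0 of 5 dKO libraries above all WT libraries. The log2 change was 0.10 ± 0.38 (edgeR quasi-likelihood test, adjusted p = 0.900), at 6 to 8 counts per dKO library and 3 to 22 per WT library, so a change of this size was not detectable at this depth. Across days, Matn1 in dKO differed by a log2 change of 5.97 ± 0.19 at day 20 against day 10. In WT the log2 change of day 20 against day 10 was -0.13 ± 0.33. It is given without a p-value, since it shares the WT day 20 libraries with the comparison that made the family stand out. The day 20 difference between genotypes exceeded the day 10 difference by 6.10 ± 0.46 on the log2 scale, and of all genes 28.7% were called for this difference between days.

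Reads on the gene's own strand made up the signal. In the dKO libraries of day 20 Matn1 had 3561 counts on its own strand and 2 on the other, and in WT libraries of day 20 it had 55 and 0. Over all genes, the opposite-strand column held 5.22 to 7.46% as many counts as the one used.

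Matn3, the other member known mainly from cartilage, was barely detected. It had 36 counts over the 23 libraries and was at 0 in 7 of them. Pooled by group, it was at 0.121 CPM in dKO at day 10 (95% Poisson interval 0.0580 to 0.222, 10 counts) and 0.0842 CPM in WT (0.0460 to 0.141, 14 counts). At day 20 it was at 0.0291 CPM in dKO (0.00793 to 0.0745, 4 counts) and 0.0487 CPM in WT (0.0210 to 0.0960, 8 counts). These intervals cover counting error only, and those of dKO and WT overlapped at both days. With no filter on low counts its log2 change at day 10 was 0.49 ± 0.69 (edgeR adjusted p = 0.950), and at day 20 it was -0.64 ± 0.93.

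**Figure D1:**
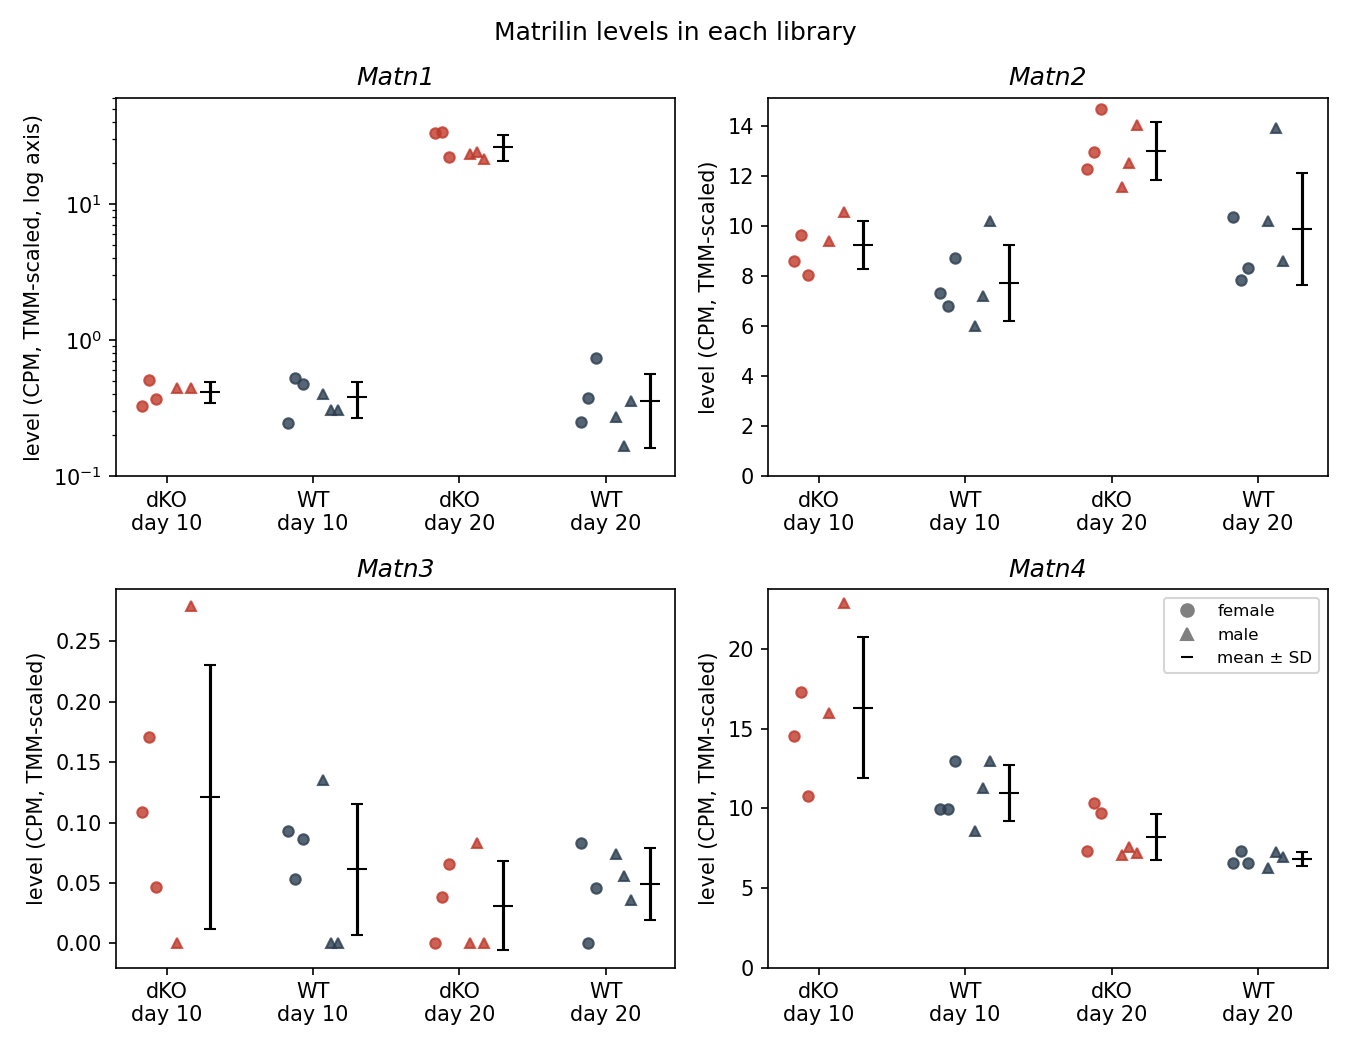
Level of each matrilin in each of 23 libraries, in CPM with TMM scaling (log axis for Matn1, linear axes for the others), as dKO and WT at each day. Circles are females, triangles males, and bars mean ± SD. Matn1 sits at 21.4 to 34.0 CPM in dKO at day 20 and at 0.168 to 0.738 CPM in WT at day 20, while the ranges of Matn2, Matn3 and Matn4 overlap between genotypes at both days.

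Matn2 encodes matrilin-2, a matrix protein of basement membranes and connective tissue. At day 20 it was at 12.3, 13.0 and 14.7 CPM in dKO females and 11.5, 12.5 and 14.0 CPM in dKO males, against 10.3, 7.84 and 8.30 CPM in WT females and 10.2, 13.9 and 8.59 CPM in WT males. In 2 of 6 dKO libraries it was above all WT libraries, and WT male replicate 2 lay within the dKO range. The means were 13.0 ± 1.16 CPM in dKO and 9.87 ± 2.23 CPM in WT, and the log2 change was 0.41 ± 0.12. By sex the log2 change was 0.58 ± 0.17 in females and 0.24 ± 0.16 in males. At day 10 the means were 9.23 ± 0.97 CPM in dKO (n = 5) and 7.70 ± 1.51 CPM in WT (n = 6), with a log2 change of 0.31 ± 0.14 that did not pass the test (edgeR adjusted p = 0.156).

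Between days, Matn2 was higher at day 20 than at day 10 in WT, by 0.37 ± 0.12 on the log2 scale (edgeR adjusted p = 0.0139), and in dKO the log2 change was 0.48 ± 0.13. The WT call was lost without WT male day 10 replicate 1 (0.28, adjusted p = 0.0703) and without WT female day 20 replicate 1 (0.31, adjusted p = 0.0535), by the same edgeR test. Matn2 also had reads on the opposite strand, 45.1% as many as on its own over the 23 libraries, where each of the other members had 2.78% or less. Such reads were 27.5% as many as those on its own strand in dKO at day 20 and 51.2% in WT at day 20, and 46.0% in dKO at day 10 and 60.3% in WT at day 10. In CPM without TMM scaling they were at a median of 3.13 (2.27 to 5.77) in dKO at day 20 and 4.79 (4.33 to 5.36) in WT. When reads of both strands were counted together, the day 20 log2 change between dKO and WT was 0.14. The annotated gene on the opposite strand within Matn2, 9430069I07Rik, was at 0.136 CPM at most in dKO and 0.0417 CPM at most in WT at day 20.

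Matn4 encodes matrilin-4, a matrilin found in the nervous system as well as in cartilage. At day 10 it was at 14.6, 17.3 and 10.8 CPM in dKO females and 16.0 and 22.9 CPM in dKO males, against 9.97, 9.96 and 13.0 CPM in WT females and 8.58, 11.3 and 13.0 CPM in WT males. In 4 of 5 dKO libraries it was above all 6 WT libraries, and dKO female replicate 3 lay among the WT values. The means were 16.3 ± 4.42 CPM in dKO (n = 5) and 11.0 ± 1.78 CPM in WT (n = 6). Matn4 was called higher in dKO at day 10, with a log2 change of 0.61 ± 0.13 (edgeR adjusted p = 0.0171), as the single member called of the 3 tested. Of all genes tested at that day, 5.79% were called, 3.88% higher and 1.91% lower in dKO. The genotype by sex difference of this change, males minus females, was 0.55 ± 0.26 (edgeR adjusted p = 0.404), with 0.88 ± 0.19 in males and 0.33 ± 0.17 in females.

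The day 10 call of Matn4 was lost without dKO male replicate 2 (0.45, edgeR adjusted p = 0.248), without WT male replicate 1 (0.51, adjusted p = 0.0663), and when only the groups of that day were fitted (0.60, adjusted p = 0.210). Over all genes, the 1254 calls of that day became 16 without dKO male replicate 2, 66 without WT male replicate 1 and 6 with those groups alone. At day 10 the extremes of Matn4 ran opposite to the summed level of 14 cerebellar granule cell and Purkinje cell markers. The library with the highest Matn4, dKO male replicate 2, had the lowest marker sum, 1022 CPM, and the next, dKO female replicate 2, had 1897 CPM. WT male replicate 1, with the lowest Matn4 of that day, had the highest sum, 5649 CPM. An exception was dKO female replicate 3, with the lowest Matn4 of the dKO libraries at a middle sum of 2832 CPM. Libraries of the 2 genotypes at nearby sums, picked after seeing the values, did not all go the same way. Matn4 was at 14.6 CPM in dKO female replicate 1 (sum 3625 CPM) and 16.0 CPM in dKO male replicate 1 (sum 3435 CPM). It was at 11.3 CPM in WT male replicate 2 (sum 3403 CPM) and 13.0 CPM in WT female replicate 3 (sum 3803 CPM). In another pair the order was reversed. Matn4 was at 10.8 CPM in dKO female replicate 3 (sum 2832 CPM) and 13.0 CPM in WT male replicate 3 (sum 2314 CPM). The part of tissue make-up in the Matn4 change was not tested. At day 10 the sums were 1022 to 3625 CPM in dKO (median 2832) and 2314 to 5649 CPM in WT (median 3866). With that sum as a term in the fit, added after seeing the data, the log2 change of Matn4 was 0.33 (edgeR adjusted p = 0.640). Over all genes the 1254 calls became 14 with this term, so the loss of the call is not particular to Matn4. None of these 14 markers was itself called at day 10, and their median log2 change was -0.67, against 0.01 over all genes tested.

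**Figure D2:**
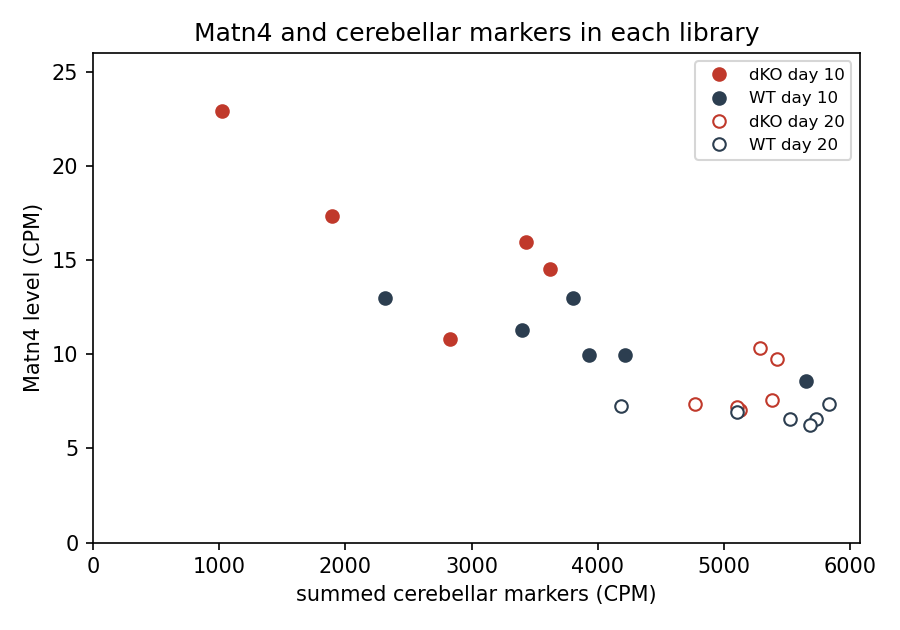
Matn4 level (vertical axis, CPM) against the summed level of 14 cerebellar markers (horizontal axis, CPM) in each of 23 libraries. Filled points are day 10 and open points day 20, dKO in red and WT in dark blue. The dKO libraries of day 10 spread from 1022 to 3625 CPM of markers and from 10.8 to 22.9 CPM of Matn4, and all day 20 libraries lie at 10.3 CPM of Matn4 or less.

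At day 20 Matn4 was at 7.34, 10.3 and 9.73 CPM in dKO females and 7.06, 7.55 and 7.18 CPM in dKO males, against 6.56, 7.34 and 6.55 CPM in WT females and 6.27, 7.24 and 6.94 CPM in WT males. The groups overlapped, with 4 of 6 dKO libraries above all WT libraries. The means were 8.20 ± 1.44 CPM in dKO and 6.82 ± 0.43 CPM in WT, and the log2 change was 0.26 ± 0.13. From day 10 to day 20 Matn4 moved in the opposite direction to Matn2. It was lower at day 20 than at day 10 in WT, by a log2 change of -0.67 ± 0.13 (edgeR adjusted p = 0.000137), and this call held without any single library. In dKO the log2 change of day 20 against day 10 was -1.02 ± 0.13. In WT between days Matn2 and Matn4 were called, where 51.4% of all genes were. In dKO 61.6% of all genes were called between days, and the members are not counted against it, since Matn1 in dKO at day 20 chose them.

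**Figure D3:**
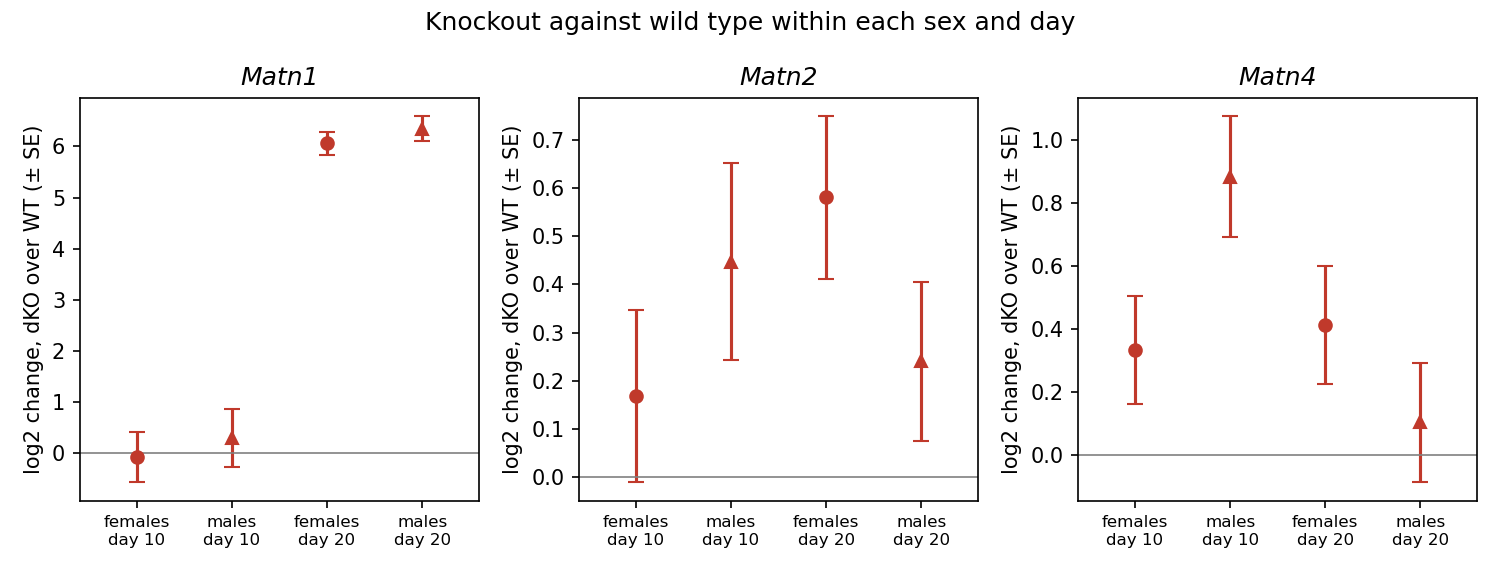
Log2 change of dKO over WT (vertical axes, on different scales) for Matn1, Matn2 and Matn4 in females (circles) and males (triangles) at day 10 and day 20. Bars are SE of the fit. Matn1 lies near 0 at day 10 and at 6.06 and 6.35 at day 20, while Matn2 and Matn4 stay between 0.10 and 0.88.

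No member was called between the sexes. In WT males against females over both days the log2 change was -0.42 ± 0.33 for Matn1, 0.10 ± 0.12 for Matn2 and -0.04 ± 0.13 for Matn4 (edgeR adjusted p = 0.9999 for each), where 0.0693% of genes were called. The difference between the sexes in the dKO effect at day 20, males minus females, was 0.29 ± 0.50 for Matn1, -0.34 ± 0.24 for Matn2 and -0.31 ± 0.27 for Matn4, given as a description. With edgeR, 0% of genes were called for that interaction at either day. At an unadjusted p under 0.05 there were 2599 genes at day 10 and 3284 at day 20, and DESeq2 called 0 and 360 and limma-voom 0 and 0. The dKO females had Matn1 at 29.8 ± 6.68 CPM and the dKO males at 23.0 ± 1.47 CPM at day 20 (n = 3 each), and WT females at 0.454 ± 0.254 CPM and WT males at 0.266 ± 0.0949 CPM.

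Per exon length, the order of the members changed at day 20 in dKO. At day 20 in dKO, Matn1 was at 13.2 ± 2.85 RPKM (CPM per kilobase of exon), Matn2 at 2.07 ± 0.19, Matn4 at 1.58 ± 0.28 and Matn3 at 0.0104 ± 0.0123 RPKM. In WT at day 20, Matn2 was at 1.58 ± 0.36 RPKM, Matn4 at 1.32 ± 0.08, Matn1 at 0.180 ± 0.0999 and Matn3 at 0.0163 ± 0.0099 RPKM. Matn2 and Matn4, neighbours in both orders, overlapped in range in dKO and in WT. At day 10 the order was the same in both genotypes, Matn4 at 3.15 ± 0.85 RPKM in dKO and 2.12 ± 0.34 in WT, Matn2 at 1.47 ± 0.16 in dKO and 1.23 ± 0.24 in WT, then Matn1 at 0.210 ± 0.0362 in dKO and 0.190 ± 0.0547 in WT, and Matn3 lowest. As a share of summed matrilin RPKM, Matn1 was 77.8 ± 3.95% in dKO and 5.99 ± 3.50% in WT at day 20 (n = 6 each), and 4.38 ± 0.76% in dKO and 5.44 ± 1.82% in WT at day 10. Matn4 held 64.0 ± 3.70% in dKO and 59.5 ± 1.73% in WT at day 10, and 9.51 ± 1.67% in dKO and 42.9 ± 4.33% in WT at day 20.

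**Figure D4:**
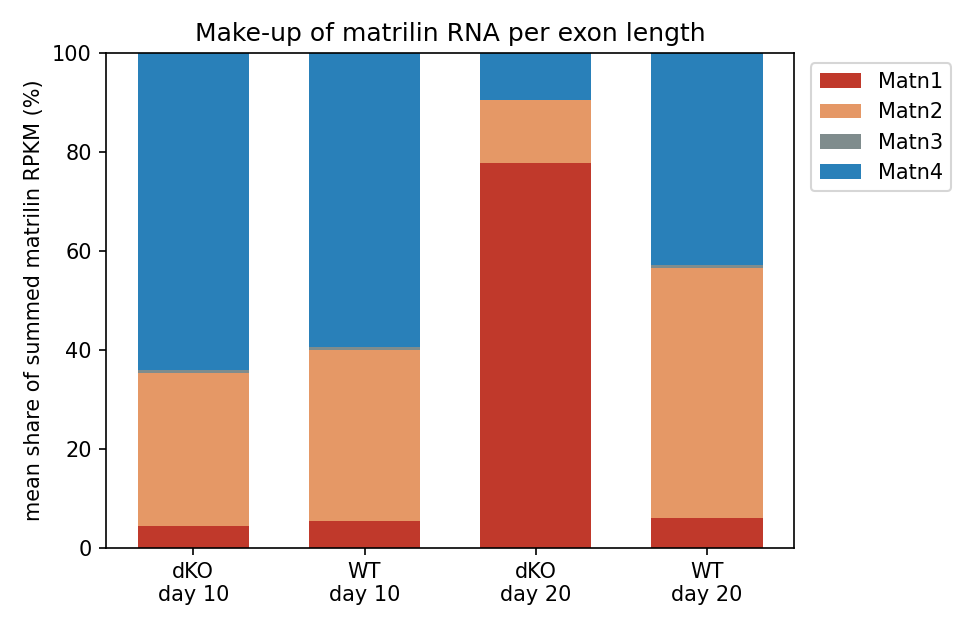
Mean share of each matrilin in the summed RPKM of the 4 genes (vertical axis, percent), as stacked bars for dKO and WT at each day. Matn1 makes up 77.8% in dKO at day 20 and between 4.38 and 5.99% in the 3 other groups.

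The genes beside the matrilins did not share the size of the Matn1 change. Of all genes tested, 38.8% were called between dKO and WT at day 20 and 5.79% at day 10. The nearest tested gene to Matn1, Laptm5, a lysosomal membrane protein gene of immune cells that ends 8.24 kb before it, was at 8.82 ± 0.65 CPM in dKO and 9.86 ± 0.65 CPM in WT at day 20 (log2 change -0.16 ± 0.09, edgeR adjusted p = 0.150). Ptpru, a receptor tyrosine phosphatase gene 813 kb beyond Matn1 and the nearest tested on that side, was higher in dKO at day 20 by 0.21 ± 0.07 (edgeR adjusted p = 0.0200). Beside Matn2, Laptm4b was lower in dKO at day 20 (-0.23 ± 0.08, edgeR adjusted p = 0.0186) and the ribosomal protein gene Rpl30 higher (0.17 ± 0.06, adjusted p = 0.0386). Beside Matn3, Laptm4a was lower at day 20 (-0.24 ± 0.05, edgeR adjusted p = 0.000522), and Wdr35, a cilium gene, was higher in dKO at day 10 (0.27 ± 0.07, adjusted p = 0.0380) and lower at day 20 (-0.20 ± 0.07, adjusted p = 0.0244).

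Beside Matn4, the genes on each side were higher in dKO at day 20, and the one that overlaps it at both days. Of all genes tested, 19.4% were called higher at day 20 and 3.88% at day 10, and an effect shared along the locus was not tested. Rbpjl, which encodes a DNA-binding relative of the Notch effector Rbpj, overlaps the start of Matn4 on the opposite strand. It was at 1.41 ± 0.46 CPM in dKO and 0.672 ± 0.223 CPM in WT at day 10 (log2 change 1.10 ± 0.23, edgeR adjusted p = 0.0171), and at 0.896 ± 0.123 CPM in dKO and 0.480 ± 0.127 CPM in WT at day 20 (0.87 ± 0.25, adjusted p = 0.00903). Its highest day 10 value, 2.17 CPM, was in dKO male replicate 2, as for Matn4. Over all genes, the 1254 calls of day 10 became 16 without that library. Reads on the strand opposite to Matn4 were 1.11% of its own over the 23 libraries. Slpi, a protease inhibitor gene 0.297 kb away, was near the counting limit, at 0.501 ± 0.197 CPM in dKO and 0.270 ± 0.107 CPM in WT at day 20 (0.87 ± 0.33, edgeR adjusted p = 0.0397). Sdc4, a syndecan gene, was at 104 ± 13.1 CPM in dKO and 79.7 ± 8.39 CPM in WT at day 20 (0.39 ± 0.11, edgeR adjusted p = 0.00739).

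A syndecan gene, for a membrane heparan sulfate proteoglycan, lies on the same chromosome as each matrilin; this was noticed after the neighbours were seen. Sdc1, 154 kb from Matn3, was lower in dKO at day 20 (-0.49 ± 0.13, edgeR adjusted p = 0.00402), opposite in direction to Sdc4. Sdc3, 118 kb from Matn1, had a log2 change of -0.04 ± 0.09 (adjusted p = 0.748) and Sdc2, 1272 kb from Matn2, -0.08 ± 0.08 (adjusted p = 0.485), by the same edgeR test.

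**Figure D5:**
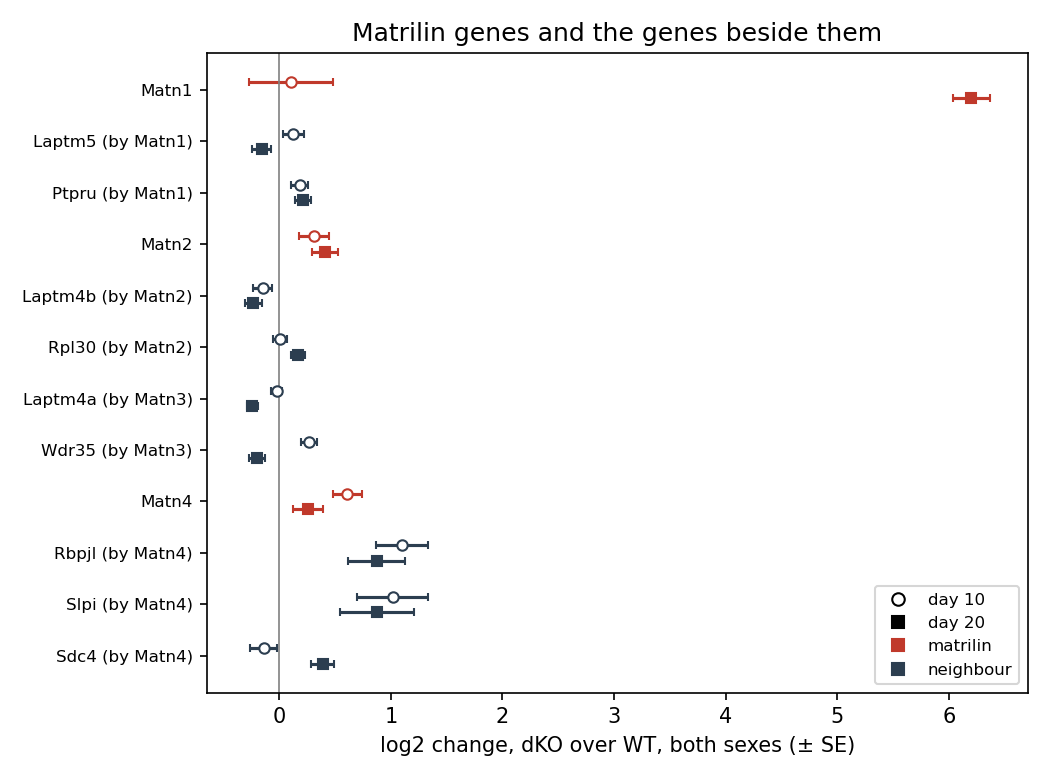
Log2 change of dKO over WT, both sexes together (horizontal axis), for Matn1, Matn2 and Matn4 (red) and for the tested genes nearest to each matrilin or overlapping it (dark blue), at day 10 (open circles) and day 20 (filled squares), with SE bars. Matn1 at day 20 lies at 6.20, and the neighbours lie between -0.24 and 1.10.

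Among 16 genes for partners of matrilins in cartilage matrix, 0 were called higher and 5 lower in dKO at day 20, where 19.4% of all genes tested were called higher and 19.5% lower. The counts of the gene lists that follow at day 20 stand beside the same background, and nothing particular to a list was tested. For the 16 partners the median log2 change was -0.27, against 0.00 over all genes tested. The 5 were Col9a3, a collagen IX chain, Bgn (biglycan), Col11a2, a collagen XI chain, Col6a2, a collagen VI chain, and Dcn (decorin). Bgn was at 5.46 ± 0.59 CPM in dKO and 9.13 ± 0.59 CPM in WT (log2 change -0.74 ± 0.12, edgeR adjusted p = 5.06e-05), and Col9a3 at 39.0 ± 4.19 CPM in dKO and 54.8 ± 3.86 CPM in WT (-0.49 ± 0.08, adjusted p = 3.84e-05). At day 10, 1 of the 16 was called higher, Col9a2, and 1 lower, Col9a1, where 3.88% of all genes tested were called higher and 1.91% lower. The day 10 counts of the lists that follow stand beside these shares.

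Of the chondrocyte markers, 17 of 18 were tested, and at day 20 1 was called higher and 4 lower in dKO, with a median log2 change of -0.36. The 4 lower genes were Cnmd (chondromodulin), Col11a2, the transcription factor gene Sox6 and the receptor gene Pth1r. Cnmd was at 0.600 ± 0.239 CPM in dKO and 1.91 ± 0.55 CPM in WT (-1.68 ± 0.26, edgeR adjusted p = 2.99e-05). The gene called higher was Sox9, the transcription factor gene that directs cartilage formation. The following cartilage genes, which did not pass the test, were picked after their values were seen. Col2a1, the main collagen of cartilage, was at 4.74 ± 0.39 CPM in dKO and 6.28 ± 1.26 CPM in WT, and Acan (aggrecan) at 13.3 ± 1.60 CPM in dKO and 17.2 ± 3.85 CPM in WT. Col10a1, of hypertrophic cartilage, was near the counting limit at 0.240 ± 0.0955 CPM in dKO and 0.245 ± 0.138 CPM in WT. The summed chondrocyte markers were at 189.9 to 227 CPM in dKO and 225 to 263 CPM in WT at day 20. In dKO the largest parts were Col11a2, at 45.1 CPM, and Hapln1, at 37.2 CPM. Hapln1 is also in the list of perineuronal net genes and Sox9 in that of astrocyte markers. The sum is therefore no measure of chondrocytes alone. At day 10 Col9a1 was the single one called, lower in dKO.

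Of 11 tested genes that regulate matrilin promoters in cartilage, Sox9 was called higher in dKO at day 20 (26.4 ± 3.87 CPM in dKO and 22.7 ± 1.30 CPM in WT, 0.22 ± 0.07, edgeR adjusted p = 0.0178). Sox6, Bmp2 and Bmp4 were called lower, with Sox6 at 28.6 ± 5.86 CPM in dKO and 40.4 ± 3.51 CPM in WT. The nuclear factor I genes Nfia, Nfib, Nfic and Nfix were not called at day 20. Nfic was lower in dKO at day 10 (-0.39 ± 0.05, edgeR adjusted p = 0.000875). Nkx3-2, of the same list, had no count in the 23 libraries.

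Relatives of the matrilins, matrix proteins with VWA domains, had 5 of 15 called higher and 3 lower in dKO at day 20, where 19.4% of all genes were higher and 19.5% lower. Svep1, a large VWA-domain matrix protein gene, was at 85.0 ± 8.42 CPM in dKO and 48.8 ± 7.02 CPM in WT (0.80 ± 0.10, edgeR adjusted p = 4.44e-06). Col14a1, a fibril-associated collagen, was at 0.907 ± 0.286 CPM in dKO and 2.09 ± 0.35 CPM in WT (-1.17 ± 0.25, adjusted p = 0.000847), Vwa1 was lower by -0.41 ± 0.07 (adjusted p = 7.37e-05) and Col12a1 higher by 0.32 ± 0.07 (adjusted p = 0.00043) in the same edgeR test. At day 10 Coch was called higher, and Col12a1 and Col20a1 lower. Of 17 genes of perineuronal nets and brain matrix, 0 were called higher and 5 lower at day 20. These were Cd44, Has3, Tnc, Tnr and Ncan, of which tenascin-C (Tnc) was at 15.1 ± 4.57 CPM in dKO and 35.8 ± 4.97 CPM in WT (-1.28 ± 0.22, edgeR adjusted p = 0.000274). At day 10 Nptx2 was called higher. Of 13 matrix proteases and inhibitors, 4 were called higher and 4 lower at day 20, and 0 either way at day 10.

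Markers of other cell types that the tissue could hold were counted in the same way. Bone markers had 0 of 8 called higher and 6 lower in dKO at day 20. Of these, Col1a1 was at 19.6 ± 3.85 CPM in dKO and 45.6 ± 13.5 CPM in WT (-1.19 ± 0.22, edgeR adjusted p = 0.000526). The sum of all 12 bone markers was at 71.5 to 94.1 CPM in dKO and 108 to 176 CPM in WT. Most of that sum was Col1a1 and Col1a2, the latter at 48.2 ± 4.12 CPM in dKO and 72.8 ± 10.7 CPM in WT. Both genes are also among the meningeal fibroblast markers, so the 2 lists are not independent. Meningeal fibroblast markers had 1 of 18 called higher and 11 lower, with Lum (lumican) at 0.496 ± 0.166 CPM in dKO and 2.20 ± 0.41 CPM in WT (-2.20 ± 0.21, edgeR adjusted p = 4.62e-08), and their sum was at 257 to 327 CPM in dKO and 320.3 to 436 CPM in WT. Of 8 tested inner ear markers, 3 were called higher and 0 lower: Tecta, Otog and Slc26a5, each at 1.05 CPM or less on average. Over 33 alternatives in processing the number called higher ran from 0 to 3. Schwann cell and cranial nerve markers had 2 of 12 higher and 2 lower, skeletal muscle markers 1 of 10 higher and 0 lower, astrocyte markers 4 of 12 higher and 4 lower, cortex and hippocampus markers 1 of 11 higher and 0 lower, and cerebellar markers 0 of 14 either way. The part of these cells in the matrilin values was not tested. At day 10 the same lists had 1 bone marker (Sp7) and 1 Schwann cell marker (Fam178b) called lower and 2 inner ear markers (Coch and Pou4f3) called higher. Meningeal, muscle and astrocyte markers had 0 called. Among the cortex and hippocampus markers Fezf2 was called higher and Prox1 lower.

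The genes whose log2 CPM followed that of Matn1 most closely over the 23 libraries, among 16982 with a mean of at least 1 CPM, were Otoa, Selenbp1, Fkbp5, Eif4b and Zfand4. Pearson r with Matn1 was 0.97 for Otoa, 0.97 for Selenbp1, 0.96 for Fkbp5, 0.96 for Eif4b and 0.95 for Zfand4; the points share their library scaling, and the 6 dKO libraries of day 20 stand apart from the other 17. With each group's mean removed, r was 0.67 for Otoa and 0.08 for Fkbp5. Otoa, which encodes otoancorin of the inner ear, was at 8.54 ± 1.65 CPM in dKO and 1.66 ± 0.82 CPM in WT at day 20, and at 1.44 ± 0.24 CPM in dKO and 1.53 ± 0.31 CPM in WT at day 10. Fkbp5, a co-chaperone gene of the glucocorticoid receptor that is induced by glucocorticoids, was at 95.5 ± 18.1 CPM in dKO and 20.2 ± 1.64 CPM in WT at day 20, and at 25.02 ± 4.25 CPM in dKO and 21.1 ± 2.44 CPM in WT at day 10. Selenbp1 was at 9.62 ± 0.97 CPM in dKO and 4.36 ± 0.57 CPM in WT at day 20. None of the 5 reached the log2 change of Matn1 at day 20, and the closest was Otoa with 2.39 ± 0.17.

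Fkbp5 is one of 20 glucocorticoid-response genes that were counted beside the matrilins, of which 18 were called higher and 0 lower in dKO at day 20, with a median log2 change of 1.47, and 0 either way at day 10. Beside Fkbp5, the smallest p-values were those of Hif3a, Map3k6 and Sult1a1, and Hif3a was at 72.4 ± 10.8 CPM in dKO and 14.2 ± 2.80 CPM in WT at day 20 (2.36 ± 0.11, edgeR adjusted p = 5.63e-12).

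The genes nearest to Matn2 in pattern were Lifr, Fibin, Cyp4f17, Ksr1 and Notch4, with r of 0.88 to 0.86. Lifr, the receptor gene for leukemia inhibitory factor, was at 158 ± 9.06 CPM in dKO and 126 ± 9.63 CPM in WT at day 20. Those nearest to Matn4 were Lrrtm1, Pgm2l1, Flot1, Grik1 and Syt16, with r of 0.94 to 0.93. Lrrtm1, a synaptic adhesion gene, was at 30.9 ± 8.58 CPM in dKO and 22.0 ± 3.93 CPM in WT at day 10, and at 16.5 ± 1.37 CPM in dKO and 15.1 ± 0.75 CPM in WT at day 20. For Matn3 no gene had an r above 0.69, in counts too sparse for a pattern. Among the matrilins themselves, r over the 23 libraries was 0.66 for Matn1 with Matn2, -0.26 for Matn1 with Matn4 and -0.16 for Matn2 with Matn4, and with each group's mean removed it was -0.45, -0.02 and 0.58 in that order.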

How the data were processed

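Each library came as a table of raw gene counts that the authors deposited, with unstranded, forward-strand and reverse-strand columns, of which the reverse-strand column was used. STAR 2.5.2b, HTSeq and the build GRCm38.p5 are named in the submitters' processing notes, and libraries were TruSeq Stranded mRNA per the labels' protocols. The 4 entries that name no gene were left out: no-feature reads were 41.7 to 47.5%, unmapped 7.65 to 11.0%, multimapping 4.77 to 5.94% and ambiguous 0.589 to 1.05% of reads. GENCODE M21 matched 50462 of 50686 gene identifiers.

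Libraries with at least 1000000 gene counts were fitted together with edgeR 4.0.16 in R 4.3.3 (filterByExpr, 21657 genes; TMM; 1 mean per group; robust quasi-likelihood test, two-sided; Benjamini-Hochberg over all genes; calls at an adjusted p under 0.05). The fit was tested on simulated data. CPM carry TMM factors, RPKM divide by exon length, and log2 CPM for correlations used a prior count of 2. No 2 libraries were identical.

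The members and gene lists were chosen with earlier results of these data known, and lists are described by counts and medians without a test. Named genes were the 4 members, the 5 genes with the highest r with each, up to 4 called members of each list by p (more where a count of 5 or fewer is spelled out), overlapping and nearest tested genes, and Pank1 and Pank2; Fezf2, Gabra6, Col2a1, Acan and Col10a1 were added after their values were seen; a further list gene is not reported here. Alternatives were other scalings and filters, the other strand columns, limma-voom (limma 3.58.1), DESeq2 1.42.0, all 24 libraries, only the groups compared, leaving out each library, and, added later, a cerebellar covariate.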

Additional observations from a re-analysis of the deposited data

Results flagged for a closer look

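Matn1 in WT female replicate 3 at day 20 stood far above the other WT libraries of that day, at 0.738 CPM (16 counts), against 0.168 to 0.375 CPM in the other 5. Of 16 groups examined for such a sample this was the single one. Chance flags about 1 group in 20, so 1 flag among 16 is near what chance gives. Otoa was also highest in that library among WT at day 20, at 3.28 CPM against 0.997 to 1.61 CPM in the others. It was picked as the gene most like Matn1 over these same libraries, so it is no independent support. Without that library the day 20 log2 change of Matn1 between dKO and WT was 6.46, and the difference of the dKO effect between males and females at day 20 was -0.22 in place of 0.29.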

How the results depend on the processing

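No paired analysis was possible because the labels carry no replicate numbers; those used here only name the libraries of a group. Matn1 between dKO and WT at day 20 ran from 6.06 to 6.46 on the log2 scale over 33 alternatives. With the cerebellar marker sum as a term, chosen after seeing the data, log2 changes were -0.11 for Matn1, 0.092 for Matn2 and 0.33 for Matn4 between dKO and WT at day 10, -0.0853 for Matn4 in genotype by day, and 0.81 for Matn2 and -0.59 for Matn4 in dKO between days. Fitting only the groups compared gave 0.60 for Matn4 at day 10. Unstranded counts gave 0.18 for Matn2 between dKO and WT at day 10, 0.14 at day 20 and 0.24 in dKO between days; the cause was not tested. Leaving out 1 library at a time, the log2 change between dKO and WT at day 10 ran from -0.0263 to 0.22 for Matn1 (below 0 without WT female replicate 1), 0.21 to 0.39 for Matn2 (called without WT male replicate 3, edgeR adjusted p = 0.0498) and 0.45 to 0.72 for Matn4. In WT between days it ran from -0.38 to 0.0177 for Matn1 and 0.28 to 0.46 for Matn2. It ran from -0.0972 to 0.0476 for Matn4 between WT males and females, and from -0.22 to 0.58 for Matn1 in genotype by sex at day 20.

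Genes called between dKO and WT at day 10 numbered 1254, 6 with only the groups compared, 14 with the cerebellar term, 608 with no filter, 2090 in DESeq2, and 16 to 4648 leaving out 1 library. For genotype by sex they numbered 0 at day 10 and 0 to 2062 leaving out 1 library, and at day 20 0, 1091 with only the groups compared, 322 with the cerebellar term, 360 in DESeq2, 30 with no filter and 0 to 145 leaving out 1 library. The number of list genes called at day 10 therefore rests on few libraries: perineuronal net genes called higher ran from 0 to 4, and cerebellar markers called lower from 0 to 14. Glucocorticoid-response genes called higher at day 20 ran from 17 to 20, and meningeal fibroblast markers called lower from 10 to 12. Inner ear markers called higher at day 20 ran from 0 to 3. At 3 to 22 counts per library, depth limits Matn1 outside dKO at day 20, and Matn3 in all libraries.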
